A study of Mus musculus with 2 samples.

Results

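The receptors described here are those by which natural killer (NK) cells read their targets. The group held 10 genes given by symbol, Ncr1, Klrk1, Klrb1c, Klrd1, Klrc1, Klre1, Klrg1, Klra4, Klra7 and Klra8, and all 10 were among the 32285 genes in the files. They were followed in tumors of RM-1, a prostate cancer line of the mouse, to ask what differed under enzalutamide (ENZ), an antagonist of the androgen receptor. RM-1 cells had been injected into the prostate of C57BL/6 mice, and both tumors carried the labelled genotype WT. The control group was 1 tumor from a mouse given vehicle, and the ENZ group was 1 tumor from a mouse given ENZ, with 1 droplet-based scRNA-seq library each. The age of the mice was not given in the sources used here. The study's methods give an ENZ dose, a schedule and a day of collection for its orthotopic RM-1 mice, without saying whether the pair sequenced here followed them. Immune cells were enriched at sorting with an isolation kit and CD45 staining, so the share of NK cells in a library also depends on that step. With 1 library and 1 mouse per group no test between the groups could be made, and each interval below is a 95% interval for counting error only.

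An NK cell weighs activating against inhibitory signals from receptors carried in the germ line, without a rearranged antigen receptor. Activating receptors pair with adaptor proteins that recruit kinases, whereas inhibitory receptors recruit phosphatases when they bind class I molecules or cadherins on the target. The Ly49 family, encoded by the Klra genes, does this in mice, and each NK cell switches on only some of its members.

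Members were ordered by role. NKp46 (Ncr1), NKG2D (Klrk1) and NK1.1 (Klrb1c) are activating. CD94 (Klrd1) is the partner chain of NKG2A, and NKG2A (Klrc1) is inhibitory and reads the class I molecule Qa-1. Klre1 pairs with Klri1 or Klri2, KLRG1 (Klrg1) is inhibitory and reads cadherins, and among the Ly49 genes Klra4 (Ly49D) and Klra8 (Ly49H) are activating and Klra7 (Ly49G) is inhibitory. In GENCODE M21 on GRCm38, 9 of the 10 genes lay on chromosome 6. Klrg1 (122270596 to 122282882, minus strand) stood apart from the other 8, which lay in the NK gene complex from Klrb1c (128778485 to 128789215, minus) through Klre1 (129577905 to 129585827, plus), Klrd1 (129591782 to 129598775, plus), Klrk1 (129610323 to 129623864, minus) and Klrc1 (129666015 to 129678973, minus) to Klra4 (130043731 to 130067271, minus), Klra8 (130115226 to 130129898, minus) and Klra7 (130218605 to 130233322, minus). Ncr1 lay on chromosome 7 from 4337724 to 4345164 on the plus strand.

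Promoter windows of 300 bases, 250 before and 50 after a RefSeq start on GRCm38.p6, were found for 8 members and not for Klrd1 or Klrg1. Of these, 5 are shown to set the windows that hold the searched letters beside those of the Ly49 genes that hold none. The letters TGTGGT, the core of sites bound by RUNX factors, were searched on both strands together with TCACAC, the core of T-box sites, and no match overlapped another. TGTGGT was present in 5 of the 8 windows (Ncr1, Klrk1, Klrb1c, Klrc1 and Klre1) and in 16.8% of all 32851 windows of the same length. TCACAC was present in 2 of the 8 (Ncr1 and Klre1) and in 14.5% of all windows. Neither was found in the windows of Klra4, Klra7 and Klra8, of which those of Klra4 and Klra8 were identical in 86.0% of their 301 aligned columns. Capitals mark the matches, and the windows lie at chr7:4337474-4337773 (plus) for Ncr1, chr6:129623815-129624114 (minus) for Klrk1, chr6:129577963-129578262 (plus) for Klre1, chr6:130067222-130067521 (minus) for Klra4 and chr6:130129849-130130148 (minus) for Klra8.
Ncr1: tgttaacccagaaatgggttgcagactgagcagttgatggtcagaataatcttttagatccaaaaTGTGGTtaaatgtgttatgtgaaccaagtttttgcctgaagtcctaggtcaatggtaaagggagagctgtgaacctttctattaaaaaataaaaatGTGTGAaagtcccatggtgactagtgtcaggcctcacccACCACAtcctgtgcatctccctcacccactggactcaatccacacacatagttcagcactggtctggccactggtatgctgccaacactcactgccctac
Klrk1: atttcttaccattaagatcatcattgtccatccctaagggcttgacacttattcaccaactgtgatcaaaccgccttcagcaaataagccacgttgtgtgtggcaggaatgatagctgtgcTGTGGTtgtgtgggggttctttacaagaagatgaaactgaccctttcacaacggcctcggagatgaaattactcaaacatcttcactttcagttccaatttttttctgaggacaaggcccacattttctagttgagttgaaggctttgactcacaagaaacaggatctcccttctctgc
Klre1: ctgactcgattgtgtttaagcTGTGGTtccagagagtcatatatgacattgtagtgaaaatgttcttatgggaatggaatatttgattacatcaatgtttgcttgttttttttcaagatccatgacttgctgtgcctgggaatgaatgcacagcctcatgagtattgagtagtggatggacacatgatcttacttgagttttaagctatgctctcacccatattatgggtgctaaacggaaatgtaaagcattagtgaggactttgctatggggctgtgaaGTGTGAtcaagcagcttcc
Klra4: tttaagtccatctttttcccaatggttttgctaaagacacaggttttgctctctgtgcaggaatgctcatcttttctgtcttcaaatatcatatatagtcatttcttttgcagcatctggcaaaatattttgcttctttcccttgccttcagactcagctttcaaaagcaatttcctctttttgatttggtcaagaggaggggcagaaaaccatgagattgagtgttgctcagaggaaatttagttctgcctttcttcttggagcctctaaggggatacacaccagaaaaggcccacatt
Klra8: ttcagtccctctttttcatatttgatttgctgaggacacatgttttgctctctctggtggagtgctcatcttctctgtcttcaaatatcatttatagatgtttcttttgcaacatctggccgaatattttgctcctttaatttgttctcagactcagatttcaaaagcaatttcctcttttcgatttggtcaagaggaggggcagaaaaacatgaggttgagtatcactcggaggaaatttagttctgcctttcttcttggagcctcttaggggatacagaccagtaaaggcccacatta

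The control library held 170830346 unique molecular identifiers (UMIs) and the ENZ library 162030149. Barcodes with at least 1000 UMIs and at most 20% mitochondrial UMIs numbered 12253 and 10271. The 2 sets had 39 barcode sequences in common and none in the NK gate. NK cells were barcodes with at least 3 UMIs of Gzma and Prf1 and at most 1 of Cd3d and Cd3e, which gave 536 control and 234 ENZ cells with a median of 4462 and 4334 UMIs. Neither gate gene is a receptor, so the rule used no value of the 10 members. CD8 T cells (at least 2 UMIs of Cd3d, Cd3e and Cd3g and 1 of Cd8a and Cd8b1) numbered 128 and 185, and myeloid cells (at least 5 Lyz2 UMIs) 2999 and 1905. Levels are given as counts per 1e6 UMIs (CPM), the UMIs of a gene in all cells of a gate over all UMIs of those cells, without division by gene length, so each gene is compared across cells and libraries and not with another gene.

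The NK gate was checked against defining markers before any comparison. Of the NK cells, 111 control and 29 ENZ barcodes also passed the gate of another class, and these mixed barcodes held 57.0% of the control and 38.0% of the ENZ UMIs of the gate, with a median of 19964 and 15943 UMIs. In the control library 52 of them also passed the myeloid gate and 47 the keratin gate (at least 5 UMIs of Krt8 and Krt18, markers of the cancer cells), against 3 and 11 in the ENZ library. The levels and ratios of the members are therefore given for the gate as it stands and for the 425 control and 205 ENZ single-class NK cells that passed no other gate, and other results say which cells they are from. In single-class cells the NK markers Eomes (103 and 126 CPM), Tbx21 (120 and 176 CPM), Il2rb, Txk, Nkg7 and Xcl1 were present in both libraries, while the T cell markers that no CD3 limit holds low were mixed. Cd4 had 1 and 0 UMIs, Cd8a 0 UMIs in both, Cd8b1 1 and 2 UMIs and Trac 21 and 6 UMIs, but the T cell receptor beta genes Trbc1 (580 and 254 UMIs) and Trbc2 (330 and 68 UMIs) were present in both libraries. The 8 NK markers, 2 of them members, summed to 2311 CPM with vehicle and 2312 CPM with ENZ.

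The single-class cells were not alike in every marker list. The 5 mast cell and basophil markers summed to 401 CPM with vehicle and 31.2 CPM with ENZ, led in the control by Mcpt4 with 295 and 0 UMIs. In the ENZ library Cpa3 was at 0 UMIs, Tpsb2 at 1 and Cma1 at 4. Most of the ENZ sum therefore lay in the remaining marker, and the lower level with ENZ is read for the named genes alone. In the control library 96.1% of the UMIs of Mcpt4, Cpa3, Tpsb2 and Cma1 lay in 2 cells, and the summed receptor level given below had a log2 ratio of -0.38 both with and without them. The 5 neutrophil markers summed to 270 and 86.8 CPM, led by S100a9 with 166 and 42.5 CPM, and the 9 T cell markers to 436 and 298 CPM, led by Trbc1 with 260 and 220 CPM (ratio 0.85, 0.73 to 0.98). Trbc2 had the lower ratio, with 148 and 59.01 CPM (ratio 0.40, 0.30 to 0.52). The 6 macrophage and monocyte markers summed to 128 and 109 CPM. The innate lymphoid markers summed higher with ENZ, at 102 and 195 CPM. Rora had 40.9 and 118 CPM (ratio 2.89, 2.20 to 3.81). Gata3, the higher of the pair in the control, had 56.6 and 72.9 CPM, with an interval that held 1 (ratio 1.29, 0.97 to 1.71). The part of the neutrophil, T cell and innate lymphoid markers in the receptor results was not tested.

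**Figure D1:**
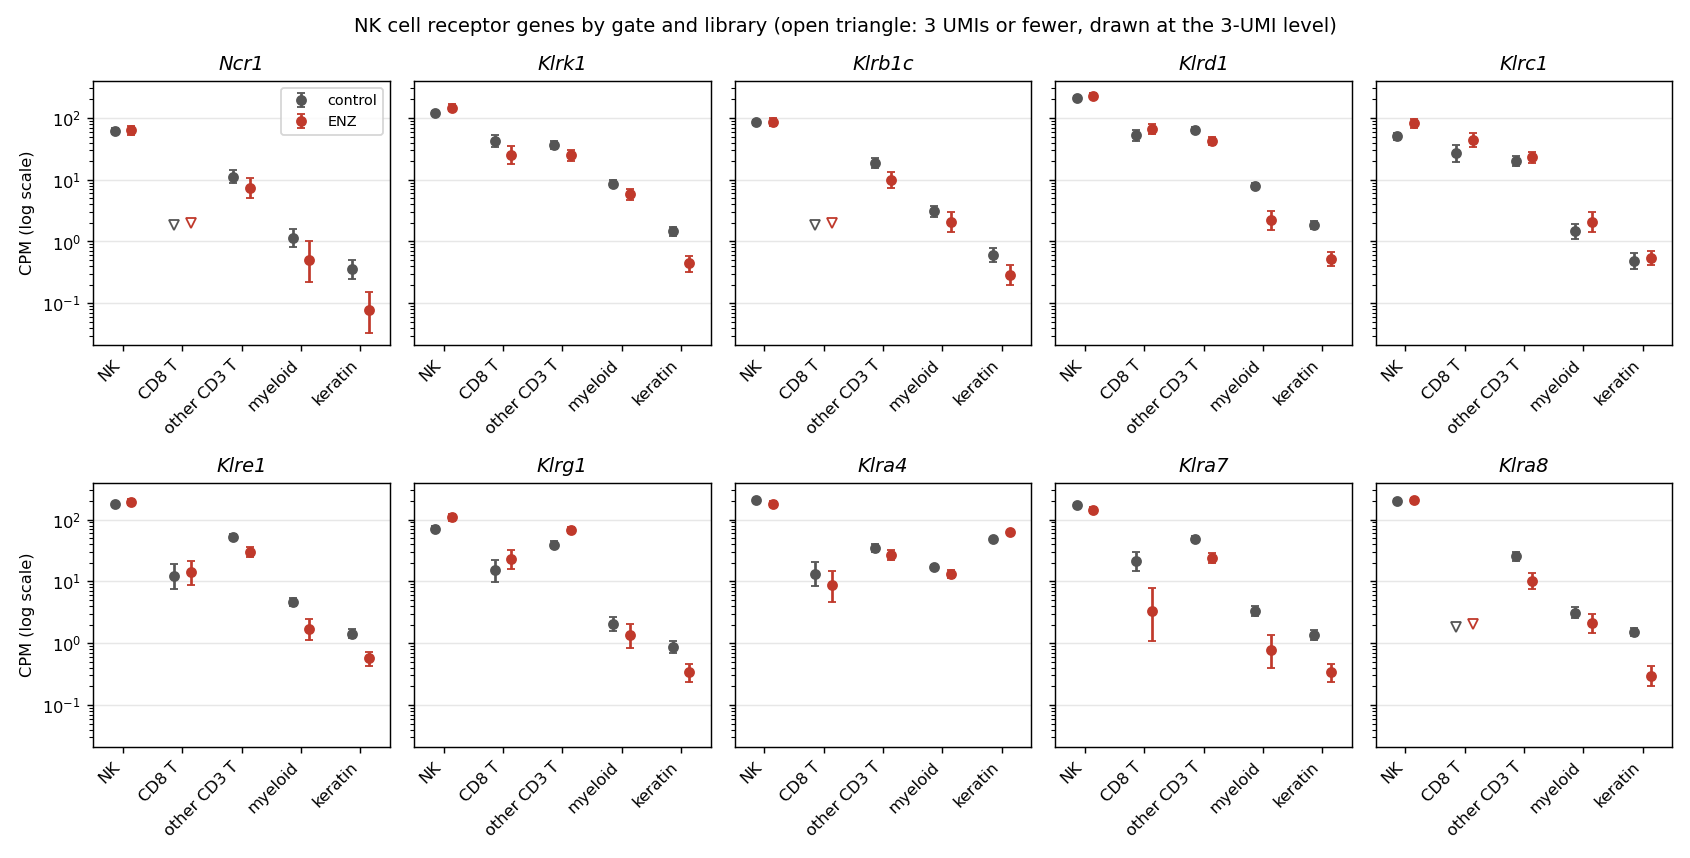
CPM of each receptor gene (log axis) in the cells of 5 gates, with control in grey and ENZ in red, and bars for 95% counting intervals. The NK gate is the highest point of every panel, Klra4 alone stays above 40 CPM in the keratin gate, and Ncr1, Klrb1c and Klra8 have 3 UMIs or fewer in CD8 T cells.

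The activating receptors were all detected in NK cells of both libraries. Ncr1 had 62.5 CPM (55.9 to 69.7) with vehicle and 62.9 CPM (52.0 to 75.4) with ENZ in the gate, a ratio of 1.01 (0.81 to 1.247). In single-class cells its level was 122 CPM (108 to 137) and 84.2 CPM (68.3 to 103), a ratio of 0.69 (0.54 to 0.88). The 2 libraries thus did not separate in the gate as given and did so, with the ENZ library lower, once mixed barcodes were left out. Klrk1 had 122 CPM (112 to 131) with vehicle and 147 CPM (130 to 166) with ENZ in the gate, a ratio of 1.21 (1.05 to 1.40), against 224 CPM (205 to 245) and 201 CPM (176 to 229) in single-class cells, a ratio of 0.90 (0.77 to 1.05). The direction of Klrk1 therefore turned with the choice of cells, and its single-class interval held 1. Klrb1c, the gene of the marker by which NK cells are stained in C57BL/6 mice, had 85.1 and 85.5 CPM in the gate and 160 CPM (144 to 178) and 118 CPM (99.03 to 140) in single-class cells, the latter a ratio of 0.74 (0.60 to 0.90). Klrb1c overlapped Gm44511 on the same strand, and reads of the overlap cannot be told apart.

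The activating Ly49 genes were lower in the ENZ library in single-class cells. Klra4 had 207 CPM (194 to 219) with vehicle and 181 CPM (162 to 202) with ENZ in the gate, a ratio of 0.88 (0.77 to 0.99). Its single-class levels were 378 CPM (353 to 404) and 229 CPM (202 to 258), a ratio of 0.61 (0.53 to 0.70). It was the member with the lowest single-class ratio and the only one past 1.5-fold there. Klra8 had 204 and 206 CPM in the gate (ratio 1.01, 0.90 to 1.14) and 376 CPM (351 to 402) and 296 CPM (265 to 329) in single-class cells, a ratio of 0.79 (0.69 to 0.89). Both genes lie within the Ly49 cluster, where the last 500 bases of Klra8 shared 13.1% of their 50-base words with another gene, led by Klra9, and those of Klra4 shared 4.66%, with Klra1. Counts of both are uncertain to that extent.

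Among the inhibitory receptors, Klrc1 and Klrg1 were the members with the highest ENZ to control ratios in the gate as given. Klrc1 had 50.6 CPM (44.6 to 57.1) with vehicle and 81.8 CPM (69.3 to 95.8) with ENZ, a ratio of 1.62 (1.32 to 1.98). The 2 intervals did not overlap. In single-class cells they nearly coincided, at 101 CPM (87.8 to 115) and 99.8 CPM (82.4 to 120), with a ratio of 0.99 (0.79 to 1.248). In the last 500 bases of Klrc1, 56.3% of the 50-base words were also in Klrc2, an activating relative, so the split of reads between Klrc1 and Klrc2 is uncertain. Klrg1 had 71.6 CPM (64.5 to 79.3) and 109 CPM (94.7 to 125) in the gate, a ratio of 1.53 (1.28 to 1.81), and 123 CPM (109 to 138) and 130 CPM (110 to 153) in single-class cells, a ratio of 1.06 (0.86 to 1.30). The ENZ value of Klrg1 rested on few cells, since 150 UMIs came from 37 of 205 single-class cells and 27 of them from 1 cell. Klra7 had 171 CPM (160 to 183) and 145 CPM (128 to 163) in the gate, a ratio of 0.85 (0.73 to 0.97), and 303 CPM (281 to 327) and 209 CPM (184 to 237) in single-class cells, a ratio of 0.69 (0.59 to 0.80). For Klra7, 27.5% of the 50-base words near the 3′ end were also in Klra13-ps, and its counts are uncertain to that extent.

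Klrd1 and Klre1 encode chains that act in pairs. Klrd1 had 214 and 230 CPM in the gate (ratio 1.08, 0.96 to 1.20) and 398 CPM (373 to 425) and 300 CPM (269 to 334) in single-class cells, a ratio of 0.75 (0.66 to 0.85). Klre1 had 177 and 194 CPM in the gate (ratio 1.10, 0.97 to 1.24) and 323 CPM (299.7 to 347) and 255 CPM (227 to 286) in single-class cells, a ratio of 0.79 (0.69 to 0.91). The intervals of both ratios held 1 in the gate and lay below 1 in single-class cells.

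In the gate as given, 2 of the 10 members (Klrc1 and Klrg1) were at least 1.5-fold higher in the ENZ library, beside 8.03% of the 6686 genes that reached 20 CPM in one library or the other, and none was at least 1.5-fold lower, beside 9.39% of genes. In single-class cells none was higher, beside 7.22% of 6066 genes, and Klra4 was lower, beside 6.31% of genes. In the gate the intervals of 3 members lay above 1 (Klrk1, Klrc1 and Klrg1) and of 2 below 1 (Klra4 and Klra7), where 24.2% of genes lay above and 20.4% below. In single-class cells 7 lay below 1 and none above, where 11.7% of genes lay below and 12.7% above. The median log2 ratio of the members was 0.06 in the gate and -0.38 in single-class cells, beside 0.06 and 0.04 over all genes tested. Summed over the 10 members, the level was 1364 CPM (1332 to 1396) with vehicle and 1443 CPM (1389 to 1499) with ENZ in the gate, a ratio of 1.06 (1.01 to 1.11). The single-class sum was 2507 CPM (2442 to 2574) and 1923 CPM (1844 to 2005), a ratio of 0.77 (0.73 to 0.81), so the direction reversed. In the mixed barcodes themselves the sum was 502 CPM with vehicle and 661 CPM with ENZ.

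**Figure D2:**
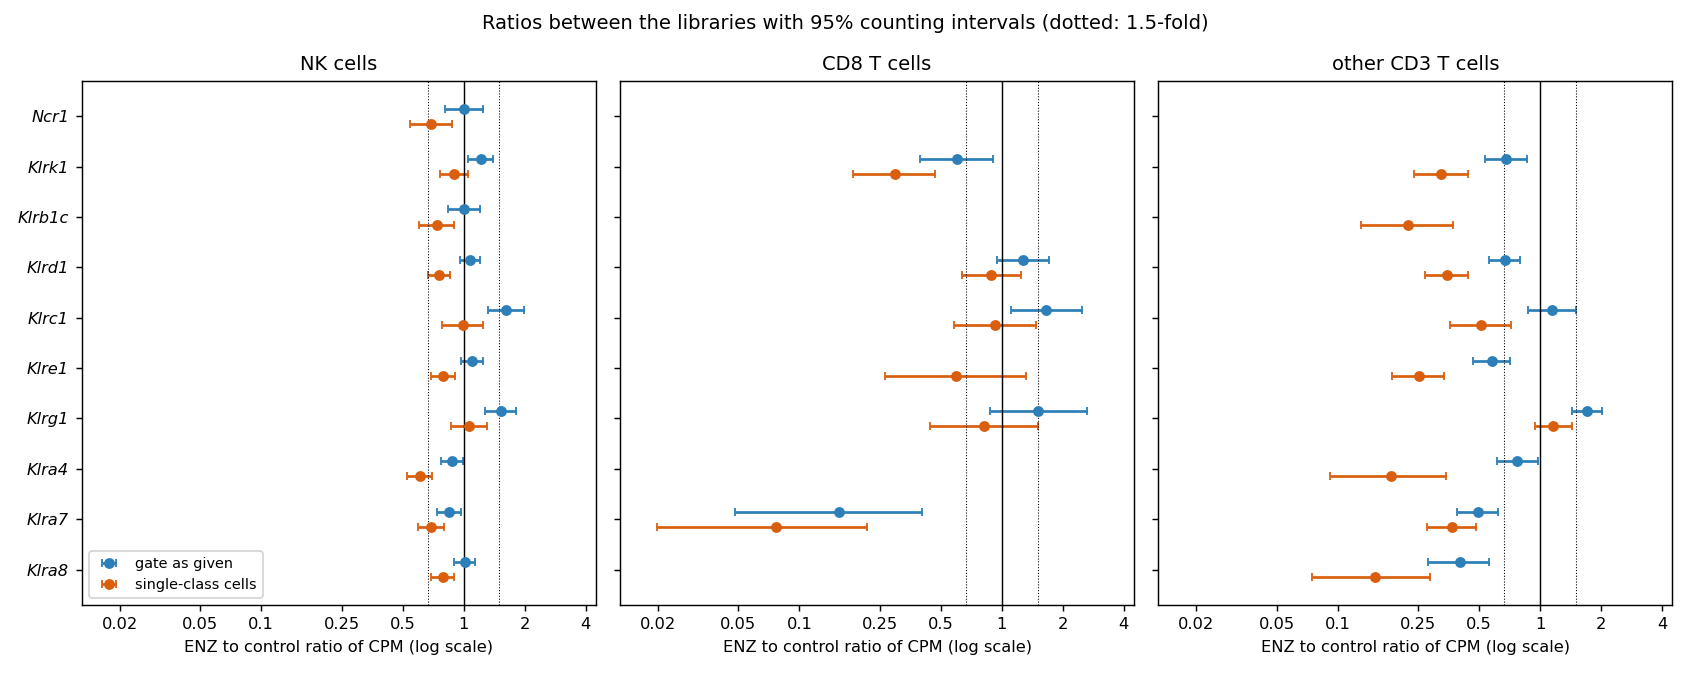
ENZ to control ratios of CPM (log axis) with 95% counting intervals in NK, CD8 T and other CD3 T cells, for the gate as given in blue and single-class cells in orange, among genes that reached 20 CPM. In NK cells the orange points lie left of the blue ones for all 10 genes, with Klra4 past the dotted 1.5-fold line.

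**Figure D3:**
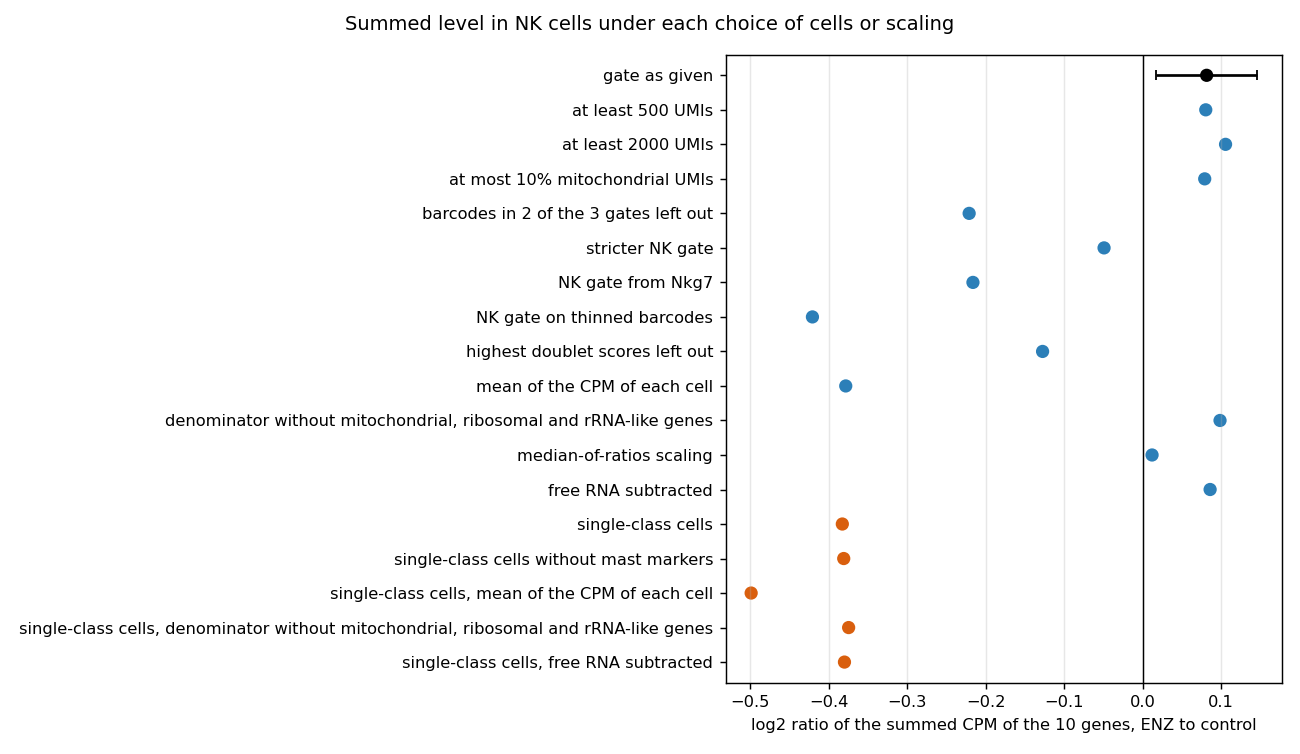
Log2 ratio (ENZ to control) of the summed CPM of the 10 genes in NK cells for the gate as given (black, with its 95% counting interval), the alternatives fixed at the start (blue) and those added later (orange). The value is above 0 for the gate and 6 alternatives and below 0 for 11, among them every one that left out mixed barcodes. Of the 12 alternatives fixed at the start, 6 are below 0.

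The share of cells with a UMI was compared after each cell was thinned to 1000 UMIs. Before thinning, 97.9% of the control and 96.2% of the ENZ NK cells had a UMI of at least 1 member. Thinned, the shares were 73.7% (69.7 to 77.4) and 70.1% (63.8 to 75.9) in the gate and 80.7% (76.6 to 84.4) and 73.7% (67.1 to 79.5) in single-class cells. The intervals of the libraries overlapped in both. Myeloid cells, which lack these receptors by type, had a member UMI in 2.47% and 1.84% of thinned cells at a median of 6623 and 5971 UMIs before thinning, far below NK cells. In single-class cells the thinned share was 31.3% (26.9 to 35.9) and 21.5% (16.0 to 27.7) for Klrd1, 27.5% and 20.5% for Klre1, 24.0% and 16.1% for Klra4, 26.1% and 22.0% for Klra8, 23.1% and 17.6% for Klra7, and 16.0% and 10.2% for Klrb1c. The ENZ share was the lower of the pair for each of the 10 genes, and the intervals overlapped for each. For Klrg1 the shares of 8.94% (6.41 to 12.1) and 3.90% (1.70 to 7.54) ran against its CPM, which was slightly higher in the ENZ library, and no order is read from them.

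The number of members detected in a cell was counted at the same thinned depth, so it is limited by that depth and does not say how many receptors a cell carries. A thinned single-class cell had a median of 2 of the 10 genes with vehicle and 1 with ENZ, and a mean of 1.91 and 1.42. In the gate as given the median was 1 in both libraries and the mean 1.68 and 1.36. In single-class cells at least 3 were found in 138 of 425 control cells (32.5%) and 43 of 205 ENZ cells (20.98%), and none in 19.3% and 26.3%. The most genes in 1 cell were 6 with vehicle and 5 with ENZ. Of control cells with a Klra4 UMI, 42.2% (32.4 to 52.3) also had one of Klra8, against 21.1% (16.7 to 25.9) of those without. In the ENZ library these shares were 33.3% (18.0 to 51.8) and 19.8% (14.1 to 26.5), and the intervals overlapped.

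**Figure D4:**
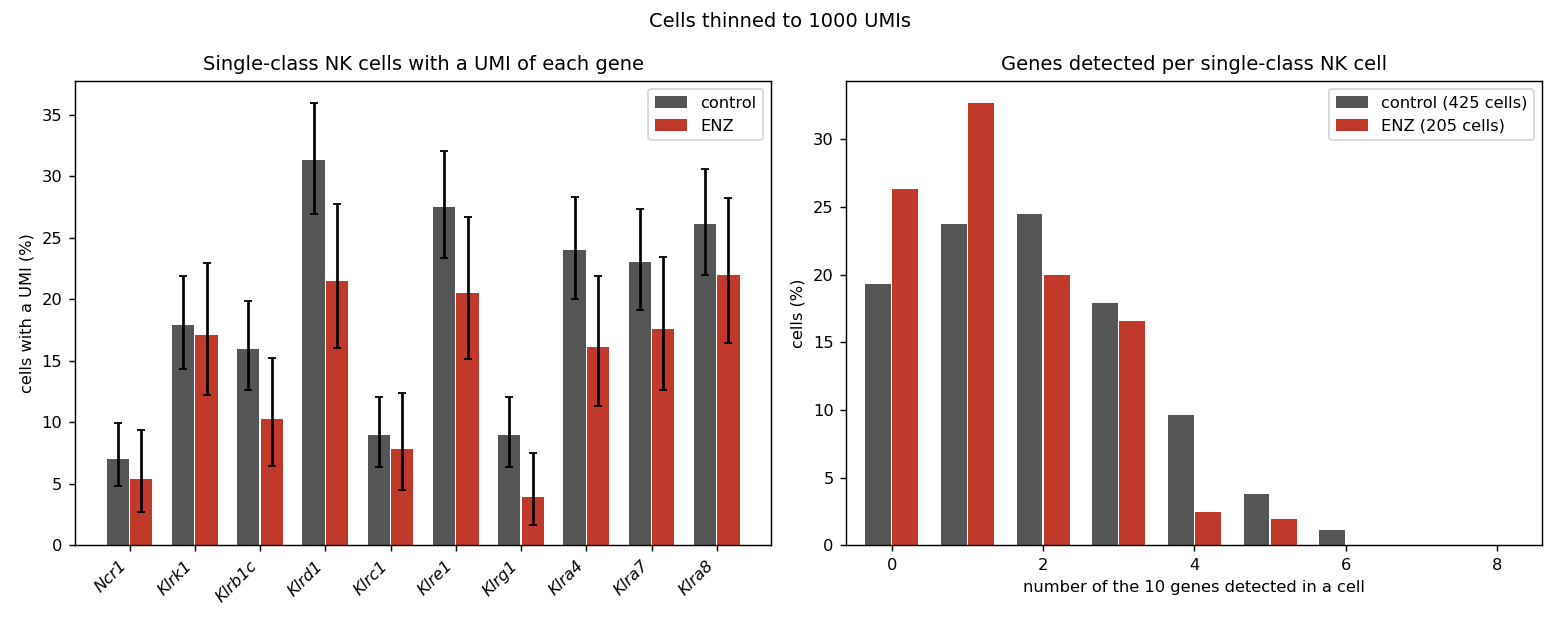
Left, percent of single-class NK cells with a UMI of each gene after thinning to 1000 UMIs, with 95% counting intervals for control (grey) and ENZ (red). Right, percent of the same cells by how many of the 10 genes were detected. The red bar is lower for every gene on the left, and the red bars are the taller ones at 0 and 1 genes on the right.

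Cells were also split by single receptors without thinning, as a description in which depth differed between the cells with and without a UMI. The genes named for these splits were chosen after their values were seen. Klrc1-positive single-class cells had less Klra4 than Klrc1-negative cells, with 166 and 486 CPM in the control (ratio 0.34, 0.28 to 0.41) and 101 and 299 CPM in the ENZ library (ratio 0.34, 0.24 to 0.47). Klra8 was also lower in Klrc1-positive cells, with ratios of 0.45 (0.38 to 0.54) and 0.76 (0.60 to 0.96), while the inhibitory Klra7 had ratios of 0.80 (0.68 to 0.95) in the control and 1.32 (1.01 to 1.72) in the ENZ library. In thinned single-class cells the shares with a UMI did not separate for Klra8, which was found in 21.1% (9.55 to 37.3) of control cells with a Klrc1 UMI against 26.6% (22.3 to 31.3) of those without, and in 31.2% (11.02 to 58.7) against 21.2% (15.6 to 27.7) in the ENZ library. For Klra4 they were 10.5% (2.94 to 24.8) against 25.3% (21.1 to 29.96) and 6.25% (0.158 to 30.2) against 16.9% (11.9 to 23.1), with intervals that overlapped. Klra4 and Klra8 went together: Klra8-positive cells had 518 CPM of Klra4 against 254 CPM in the control (ratio 2.04, 1.77 to 2.36) and 335 CPM against 150.2 CPM in the ENZ library (ratio 2.23, 1.73 to 2.89). Klra7 went with Klra8 as well, at ratios of 1.78 and 1.62. This was not limited to Ly49 genes. In the control Klrb1c (ratio 1.34, 1.08 to 1.66), Klre1 (1.28, 1.10 to 1.48) and Klrd1 (1.19, 1.04 to 1.36) were also higher in Klra8-positive cells. Klrc1 was lower in them (0.53, 0.39 to 0.70), and the intervals of Ncr1 and Klrk1 held 1.

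Klrg1-positive cells, 115 of 425 in the control and 37 of 205 in the ENZ library, had a median of 7212 and 8768 UMIs against 3330 and 3628 in Klrg1-negative cells. Their Itgam level, a gene of the integrin CD11b that marks mature NK cells, was 12.6 CPM against 64.3 CPM in the control (ratio 0.20, 0.10 to 0.36) and 15.0 CPM against 65.1 CPM in the ENZ library (ratio 0.23, 0.08 to 0.54). Spn (CD43) was higher in them, at ratios of 2.73 and 1.72 with intervals above 1. Perforin (Prf1), a gate gene, stood at 605 against 195 CPM in the control and 1299 against 260 CPM in the ENZ library. Klra4 and Klra8 were lower in Klrg1-positive cells of both libraries, at ratios of 0.68 and 0.61 in the control and 0.55 and 0.62 in the ENZ library, while Klra7 had ratios of 0.997 (0.85 to 1.16) and 1.51 (1.16 to 1.96). The converse split did not give 1 direction for Klra8, since Klra8-positive cells had 142 CPM of Klrg1 against 106 CPM in the control (ratio 1.34, 1.05 to 1.71) and 108 CPM against 147 CPM in the ENZ library (ratio 0.73, 0.51 to 1.03). Thinned control cells of the gate with a Klrg1 UMI had one of Klra8 in 34.04% (20.9 to 49.3), against 21.9% (18.3 to 25.8) of those without, and no order of Klrg1 and Klra8 is read from these values.

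In CD8 T cells the members were fewer and lower. Of the 10 genes, 8 were at least 4-fold higher in NK than in CD8 T cells in each library, beside 0.861% of 6856 genes (control) and 1.31% of 6924 (ENZ). Of those counted, Ncr1, Klrb1c, Klre1, Klra4 and Klra8 reached 20 CPM only in NK cells in both libraries. Klrg1 did so in the control and Klra7 in the ENZ library. In single-class cells the count past 4-fold was 6 in the control, beside 2.09% of genes, and 8 in the ENZ library, beside 2.02%. There Ncr1, Klrb1c, Klra4 and Klra8 reached 20 CPM only in NK cells in both libraries, and Klre1 and Klra7 in the ENZ library. Against other CD3 T cells (described below) the counts in the gates were 4 in the control, beside 0.391% of genes, and 8 in the ENZ library, beside 1.06%. Of these, Ncr1 and Klrb1c reached 20 CPM only in NK cells in both libraries, as did Klra8 in the ENZ library. All 10 were at least 4-fold higher in NK than in myeloid cells in both libraries, beside 2.96% (control) and 4.08% (ENZ) of genes. None of the 10 reached 20 CPM in myeloid cells, so all were compared only through NK cells, where they are high. The counts between classes are therefore a description. Klrc1 did not reach 4-fold over CD8 T cells in either library or set of cells, at 2.13-fold or less. Klrk1 missed it in the control (2.85-fold in the gate) and Klrd1 in the ENZ library (3.46-fold in the gate), and Klrk1, Klrd1 and Klrg1 missed it in control single-class cells.

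Klrk1, which costimulates CD8 T cells, had 42.7 CPM (33.3 to 53.9) in control and 25.5 CPM (18.1 to 35.1) in ENZ CD8 T cells, a ratio of 0.60 (0.39 to 0.90). In the 96 and 166 single-class CD8 T cells it had 95.6 CPM (73.3 to 122) and 28.3 CPM (18.9 to 40.6), a ratio of 0.30 (0.18 to 0.47), with UMIs in 28 and 18 cells. The ENZ library was the lower in both sets. Klra7 had 35 UMIs in 9 control cells and 5 UMIs in 3 ENZ cells, a ratio of 0.16 (0.05 to 0.40), and 33 UMIs in 7 cells and 4 UMIs in 2 cells in the single-class set. Up to 12 of these UMIs came from 1 control cell. Klrd1 had 52.4 and 66.6 CPM in the gate and 100.2 and 88.8 CPM in single-class cells, with intervals of the ratio that held 1 in both (0.94 to 1.71 and 0.64 to 1.24).

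Klrc1 in CD8 T cells stood at 26.8 CPM (19.5 to 36.02) with vehicle and 44.4 CPM (34.3 to 56.5) with ENZ in the gate, a ratio of 1.65 (1.11 to 2.48). In single-class cells it stood at 50.9 and 46.8 CPM, a ratio of 0.92 (0.58 to 1.48), so its direction was lost there as in NK cells. Klrg1 had 15.2 and 22.9 CPM in the gate and 32.4 and 26.3 CPM in single-class cells, both with intervals around 1. Klre1 had 20 and 21 UMIs in the gate. Ncr1, Klrb1c and Klra8 had at most 3 UMIs in either library, and no ratio is given. Klra4 had 22 and 13 UMIs in the gate and 0 in both libraries in single-class cells, which allows up to 4.62 CPM with vehicle and 2.93 CPM with ENZ. Among members with at least 20 CPM, 1 of 5 (Klrc1) was at least 1.5-fold higher in the ENZ gate, beside 15.0% of genes, and 2 (Klrk1 and Klra7) lower, beside 13.4%, of which Klra7 reached 20 CPM only in the control. In single-class cells none of 6 was higher, beside 13.9%, and Klrk1, Klre1 and Klra7 were lower, beside 11.8%. Klre1 and Klra7 reached 20 CPM only in the control, where they were the higher, so the count of 3 says little. Klre1 rested on 15 and 14 UMIs there, with an interval of the ratio that held 1 (0.59, 0.26 to 1.31).

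Other CD3 T cells, with at least 2 CD3 UMIs and no CD8 UMI, held UMIs of the receptors as well, with a sum of 351 CPM in 571 control and 267 CPM in 632 ENZ cells. Of 8 members with at least 20 CPM in the gate, Klrg1 was at least 1.5-fold higher, beside 15.8% of genes, and Klre1, Klra7 and Klra8 were lower, beside 12.6%, of which Klra8 reached 20 CPM only in the control. In the 407 and 552 single-class cells the sum was 564 CPM (532 to 597) and 236 CPM (218 to 255), a ratio of 0.42 (0.38 to 0.46). Of the 9 members with at least 20 CPM there, 8 were at least 1.5-fold lower in the ENZ library, beside 6.13% of 6326 genes, and none was higher, beside 11.3%. Of the 8, Klrb1c, Klra4 and Klra8 reached 20 CPM only in the control. Klrb1c stood at 33.9 CPM (26.3 to 42.8) and 7.58 CPM (4.69 to 11.6), a ratio of 0.22 (0.13 to 0.37), with UMIs in 42 of 407 and 12 of 552 cells. Klrk1 stood at 68.7 and 22.4 CPM, a ratio of 0.33 (0.24 to 0.44), and Klra8 at 28.5 and 4.33 CPM, from 58 UMIs in 11 cells and 12 UMIs in 5 cells. Klra4 stood at 25.5 and 4.69 CPM. Among the 9 members Klrg1 was the exception, at 71.1 CPM (60.03 to 83.7) and 82.6 CPM (72.3 to 94.1), a ratio of 1.16 (0.94 to 1.44). In barcodes with at most 100 UMIs, taken as free RNA, Klra8 had 10.2 and 4.96 CPM and Klra4 34.5 and 41.9 CPM. Such barcodes with at least 10 UMIs held a mean of 53.6 and 68.2 UMIs. A level in free RNA is therefore not the level that it adds to a cell. The part of free RNA in the levels of these T cells was not tested. A barcode of an NK cell and a T cell together falls in this gate, since it has CD3 UMIs, and the number of such barcodes was not tested.

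Klra4 differed from the other members in the cancer cells. In single-class keratin cells it had 49.0 CPM (47.5 to 50.5) in 2629 control and 64.5 CPM (62.9 to 66.1) in 3375 ENZ cells, a ratio of 1.32 (1.27 to 1.37), while the other 9 members had at most 0.65 CPM in either library. Klra4 UMIs were found in 47.4% and 56.1% of these cells at a median of 26464 and 25783 UMIs, and in 4.03% (3.31 to 4.86) and 6.13% (5.35 to 6.996) after thinning. Single-class myeloid cells had 2.23 and 3.09 CPM, and single-class CD8 T cells and the 25 and 13 single-class B cells had 0 UMIs. Its level in free RNA was given above. Its nearest relative by shared 3′ words, Klra1, had 3 and 1 UMIs in the keratin cells. Klra2, another Ly49 gene, had 4.63 and 4.15 CPM. The deposited counts do not say whether the Klra4 reads of these cells lay in its exons.

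Other genes of the NK receptor systems were taken from lists. Of 25 further receptor genes 24 were in the files, and in single-class NK cells 16 had at least 20 CPM, of which 3 were at least 1.5-fold higher in the ENZ library (Cd226 with 14.4 and 27.8 CPM, Klra5 with 11.7 and 20.8 CPM, and Tigit with 14.8 and 23.4 CPM) and 1 was lower (Cd160, 40.9 and 14.8 CPM), beside 7.22% and 6.31% of all genes. These 3 reached 20 CPM only in the ENZ library and Cd160 only in the control, and the intervals of Klra5 (0.98 to 3.23) and Tigit (0.91 to 2.71) held 1, while that of Cd226 did not (1.15 to 3.26). In the gate as given 4 of 14 were higher (Cd226, Cd244a, Cd96 and Slamf7) and Cd160 was lower, beside 8.03% and 9.39% of all genes. Slamf7 had 44.96 and 89.8 CPM there and 79.9 and 99.8 CPM in single-class cells. The median log2 ratio of this list in single-class cells was 0.02, against -0.38 for the 10 members. The intervals of 3 of its genes lay below 1 there and of 1 above. Klrc2 (ratio 0.70, 0.53 to 0.93) and Klra9 (ratio 0.78, 0.62 to 0.97) were lower in the ENZ library. In the gate as given the intervals of 6 lay above 1 and of 2 below.

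Of 14 adaptor and signalling genes, all with at least 20 CPM, none passed 1.5-fold in single-class cells and 3 were higher in the gate as given (Cd247, Inpp5d and Sh2d1b1), beside 8.03% of all genes. Among the adaptors of the activating receptors, 3 stood lower in the ENZ library in single-class cells: Tyrobp (DAP12), which serves Ly49D and Ly49H, at 1220 and 999 CPM (ratio 0.82, 0.76 to 0.88), Hcst (DAP10), which serves NKG2D, at 207 and 154 CPM (ratio 0.74, 0.62 to 0.89), and Fcer1g, which serves NKp46, at 920.5 and 791 CPM (ratio 0.86, 0.79 to 0.93). Cd247 (CD3 zeta), which also serves NKp46, went the other way, at 103 and 128 CPM (ratio 1.24, 0.997 to 1.53), and at a ratio of 1.65 in the gate. Inpp5d, the phosphatase SHIP1, stood higher, at 323 and 404 CPM (ratio 1.248, 1.11 to 1.40). In the gate as given Tyrobp was at 822 and 799 CPM, with an interval of the ratio that held 1. Hcst was at 111 and 118 CPM there (ratio 1.06, 0.91 to 1.24), and Fcer1g at 714 and 627 CPM (ratio 0.88, 0.82 to 0.94).

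Of 20 maturation and residence genes, 14 had at least 20 CPM in single-class cells, of which Spn (36.8 and 58.1 CPM) was at least 1.5-fold higher in the ENZ library and Cx3cr1 (23.3 and 8.68 CPM) lower, beside 7.22% and 6.31% of all genes, Cx3cr1 reaching 20 CPM only in the control. Tbx21, a T-box factor of NK maturation, stood at 120 and 176 CPM (ratio 1.47, 1.22 to 1.77), and Eomes, its relative, at 103 and 126 CPM (ratio 1.22, 0.98 to 1.51). Il2rb, a chain of the interleukin-15 receptor, stood at 513 and 651 CPM (ratio 1.27, 1.16 to 1.39). Zeb2 and Ctla2a turned with the choice of cells. In single-class cells their ratios were 1.31 (1.06 to 1.61) and 0.91 (0.85 to 0.98), against 0.82 (0.72 to 0.93) and 1.20 (1.12 to 1.28) in the gate. In the gate as given 13 genes of the list had at least 20 CPM, of which 7 were at least 1.5-fold higher and 1 lower. Of all genes 8.03% were higher and 9.39% lower there. The median log2 ratio of the list was 0.60 in the gate and 0.24 in single-class cells. In the gate the ratios of Tbx21, Eomes and Il2rb were 1.91, 1.79 and 1.80, with intervals above 1, and that of Cx3cr1 was 0.21 (0.097 to 0.39). Among the other NK markers in single-class cells Txk stood higher, at 343 and 438 CPM (ratio 1.28, 1.14 to 1.43), while Nkg7 stood lower, at 742 and 576 CPM (ratio 0.78, 0.71 to 0.85), and so did the chemokine gene Xcl1, at 208 and 142 CPM (ratio 0.68, 0.57 to 0.82). Their ratios in the gate as given were 1.84 for Txk, 1.05 (0.97 to 1.14) for Nkg7 and 0.82 (0.69 to 0.97) for Xcl1. The 2 cytotoxic genes of the gate went opposite ways in single-class cells, with Gzma at 3564 and 2092 CPM (ratio 0.59) and Prf1 at 370 and 621 CPM (ratio 1.68). Both set the gate, and their part in the receptor results was not tested beyond the gates set from other genes or counts.

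Ligands were read in single-class keratin cells. Of 17 genes 8 had at least 20 CPM, and none passed 1.5-fold, beside 0.375% of genes that were higher and 0.735% that were lower. Pvr, whose product is read by the receptors of Cd226, Tigit and Cd96, had a ratio of 1.18. H2-T23, which encodes the NKG2A ligand Qa-1, had 38.6 and 50.7 CPM (ratio 1.31, 1.26 to 1.37), and Cdh2, a cadherin read by KLRG1, had 58.4 and 74.6 CPM (ratio 1.28, 1.23 to 1.33). The class I genes differed little, with H2-K1 at 1037 and 1078 CPM (ratio 1.04) and H2-D1 at 1098 and 1119 CPM (ratio 1.02), and B2m, their shared light chain, had a ratio of 0.98.

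Genes whose level followed that of the summed receptors were ranked over 12 profiles, 6 cell classes in 2 libraries, among 10149 genes. With the members and the gate genes left out, the 10 closest were Kcnk10, Gm32509, Nrgn, Serpinb9b, Fam184a, Tmsb10, Nrarp, Samd3, Tmprss6 and Filip1, with Pearson correlations of log2(CPM + 1) from 0.95 to 0.92. The points share their libraries and differ in depth, and the correlations are a description. In the keratin profiles the sum was nearly all Klra4, with 49.0 of 52.4 CPM in the control and 64.5 of 66.6 CPM in the ENZ library. Klra4 itself ranked 663 with a correlation of 0.58. Between libraries in the NK gate, the genes highest in ENZ by the bound nearer to 1 were Gzmf, Dna2, Plb1, Ccl24 and Gzmg, and the lowest were Apoe, Cma1, Tpsb2, Cpa3 and Mcpt4. Gzmf, a granzyme, had 67.9 and 857 CPM in the gate and 141 and 740 CPM in single-class cells, and stood among the 5 highest in both. No receptor gene was among these 10 in either set of cells.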

How the data were processed

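The deposited files held raw UMI counts per gene and barcode for 2 libraries, one per tumor, unfiltered for cells. Per the labels, libraries were made with 3′ chemistry. The submitters' processing notes name Cell Ranger 2.1.1 and mm10, whereas the file headers name Cell Ranger 7.2.0. How doublets were treated by the authors is not given in the sources used here. From the counts, CPM with exact Poisson intervals, ratios with conditional binomial intervals and shares with Clopper-Pearson intervals were computed in Python 3.11.15 with numpy 2.4.6, scipy 1.17.1 and pandas 2.3.3, all at 95% and for counting error only. A count of 0 was bounded by a floor of 3 UMIs per pool. Genes with at least 20 CPM in either pool were compared, gate genes left out, and a gene counted as past a limit at 1.5-fold between libraries or 4-fold between classes. Thinning drew 1000 UMIs from each cell without replacement. Doublet scores came from Scrublet in scanpy 1.11.5, and the highest 5% were left out only as an alternative. The scripts were tested on simulated data.

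Of 32285 gene identifiers 32158 were found in GENCODE M21. Promoter windows came from RefSeq on GRCm38.p6, and where there was more than 1 window for a gene, the one nearest the GENCODE start was used. Named genes were the 10 members, from each list the 6 with the highest CPM and those past 1.5-fold, the 10 most alike by Pearson correlation, and the 5 highest and 5 lowest between libraries in NK cells with at least 50 CPM. The members, gates and lists were chosen with earlier results of these data known, and the single-class cells were an alternative added after seeing the data. Cell classes are gates on marker UMIs and were rebuilt here. The values of 2 listed genes are not reported here.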

Additional observations from a re-analysis of the deposited data

Results flagged for a closer look

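The Klrk1 ratio of the ENZ to the control library lay on opposite sides of 1 in 2 cell classes, at 1.21 in NK cells and 0.599 in CD8 T cells of the gates as given. With 1 library per group the difference between the classes was not tested, and in single-class cells both ratios were below 1, at 0.90 and 0.30.

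Klrg1 had a ratio of 1.71 in other CD3 T cells, a class outside the 3 gates that the comparisons were built on, against 1.16 in the single-class cells of that class.

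Klra4 was present in keratin cells, where no other member passed 2 CPM, and had a ratio of 1.33 in the gate and 1.32 in single-class cells.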

How the results depend on the processing

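No paired analysis was possible because each group had 1 library. Of 17 settings 12 were fixed at the start, of which 6 gave a log2 ratio of the summed level in NK cells below 0. Over all 17 this log2 ratio, 0.08 in the gate, was below 0 in 11. It was -0.22 without barcodes in 2 of the 3 gates, -0.049 with a stricter gate, -0.22 with a gate from Nkg7, -0.42 with a gate on thinned barcodes, -0.13 without the highest doublet scores and -0.38 as the mean over cells. In single-class cells it was -0.38, without mast markers -0.38, as the mean over cells -0.50, without mitochondrial and ribosomal genes -0.37 and with free RNA subtracted -0.38. Median-of-ratios scaling gave 0.012. Klra4 and Klra7 in NK cells and Klrk1 in CD8 T cells were below 0 in all 17 settings.

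Members at least 1.5-fold higher in NK cells, 2 in the gate, numbered 0 in each of the settings below 0 and with a limit of 2-fold, and 1 with median-of-ratios scaling. Members lower, 0 in the gate, numbered 1 with the thinned gate and in the single-class settings, except for 5 with the mean over single-class cells. Genes past 1.5-fold in NK cells numbered 1165, against 755 without barcodes in 2 gates, 553 with a limit of 50 CPM, 3077 with a lower fold limit and 309 at 2-fold.

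In CD8 T cells the summed log2 ratio of 0.01 became -0.28 without barcodes in 2 gates and -0.48 as the mean over cells. In single-class cells it was -0.76, without mast markers -0.74, as the mean -0.69, with the reduced denominator -0.76 and with free RNA subtracted -0.75. Members higher in CD8 T cells, 1 in the gate, numbered 2 with at least 500 or 2000 UMIs, without the highest doublet scores, with the reduced denominator, with free RNA subtracted and with no CPM limit, 3 with the lower fold limit, and 0 without barcodes in 2 gates, as the mean over cells, in the single-class settings, at 50 CPM and at 2-fold. Members lower, 2 in the gate, numbered 0 at 50 CPM, 4 with no CPM limit and 1 at 2-fold.

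Members whose interval did not hold 1 in the gate turned as follows on the log2 scale. Klrk1 in NK cells was -0.0074 without barcodes in 2 gates, -0.062 with the thinned gate, -0.18 as the mean and, in single-class cells, -0.15, without mast markers -0.15, as the mean -0.29, with the reduced denominator -0.15 and with free RNA subtracted -0.15. Klrc1 in NK cells was -0.18 with the gate from Nkg7, and in single-class cells -0.011, with the reduced denominator -0.0032 and with free RNA subtracted -0.0083. Klrg1 in NK cells was -0.19 with the thinned gate, -0.28 as the mean and -0.45 as the mean over single-class cells. Klrc1 in CD8 T cells was -0.12 in single-class cells, without mast markers -0.10, as the mean -0.15, with the reduced denominator -0.12 and with free RNA subtracted -0.11. Members whose interval held 1 also lay on both sides of 0. In NK cells Ncr1, Klrb1c and Klra8 were above 0 in 5 of 17 settings each, Klrd1 in 6 and Klre1 in 7, and in CD8 T cells Klrd1 and Klrg1 in 11 and Klre1 in 9. The share of NK cells with a member UMI, 73.7% and 70.1%, was 86.3% and 88.2% when thinned to 2000 UMIs, which also left out 38 control and 14 ENZ cells with fewer, and 97.9% and 96.2% without thinning, and 80.7% in control single-class cells. The cause of these shifts was not tested. The single-class settings were chosen after seeing the data. With 1 mouse per group the spread between mice is unknown.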

Other observations

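The proliferation markers Mki67 and Top2a in single-class NK cells summed to 263 and 154 CPM in the control and ENZ libraries. The gamma-delta T cell markers summed to 21.6 and 21.7 CPM and the cancer markers to 46.2 and 61.6 CPM. In the NK gate as given the macrophage and monocyte markers summed to 998 and 196 CPM and the cancer markers to 512 and 377 CPM.

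In myeloid cells the 10 members summed to 52.6 CPM with vehicle and 31.9 CPM with ENZ in the gate and to 25.8 and 17.3 CPM in single-class cells, and none reached 20 CPM.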
